A study of Mus musculus with 2 samples.

Results

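The macrophages of the mouse aortic wall that carry RNA of Lyve1 and Folr2 were described here from 2 droplet libraries, 1 per genotype. Lyve1 encodes a receptor for the matrix sugar hyaluronan and Folr2 encodes the folate receptor beta. A barcode was kept as a cell when it held at least 1000 UMIs (unique molecular identifiers, 1 per captured RNA molecule), at least 500 genes, and no more than 10% of its UMIs from mitochondrially encoded genes. A kept cell was counted as a macrophage when C1qa, C1qb, C1qc and Lyz2 together gave at least 20 UMIs, and as a Lyve1 Folr2 macrophage when Lyve1 and Folr2 together gave at least 3 more. These rules selected 611 of 10116 kept cells, 314 of 3697 in the wild-type and 297 of 6419 in the knock-in library. The remaining 78 cells that met the first macrophage rule, 48 wild-type and 30 knock-in, are called other gated macrophages below. That name states the rule they met and not a cell type. The 4 genes of that rule are called the gate genes. The cells were thus selected on the UMIs of these 6 genes, so their levels describe the selection and are no result.

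The study compared aortas of 1-month-old wild-type mice with aortas of mice of the same age that carry a knock-in mutation of matrix Gla protein (MGP), and asked how that mutation bears on cell differentiation controlled by bone morphogenetic proteins (BMPs) in the medial layer. Matrix Gla protein is a secreted inhibitor of calcification that also binds BMPs. Mice of both sexes were used, the outer layer (adventitia) was dissected away, the vessels were digested with Liberase, and dead cells were sorted out by DAPI staining. The sources used here do not name the mutated residue, the mouse strain, the number of mice pooled or the hour of collection. With 1 library per genotype no difference between genotypes could be tested, and no p-value is given. All intervals are 95% intervals that cover counting error only, not the spread between mice, dissections or libraries.

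The whole libraries held 79626104 wild-type and 85831737 knock-in UMIs, and 4 kept barcodes occurred in both libraries, none of them among the Lyve1 Folr2 macrophages. A wild-type Lyve1 Folr2 macrophage had a median of 15398 UMIs and a knock-in one a median of 11814, with 3985 and 3441 genes. Across all kept cells these medians were 20480 and 11820 UMIs. Mgp RNA made up 589 CPM (UMIs of a gene per 1000000 UMIs of the same cells) in the wild-type and 738 CPM in the knock-in macrophages. The counts do not separate mutated from normal Mgp RNA, so this level does not check the genotype labels. All 5 markers set for these cells (C1qa, C1qb, Mrc1, Lyve1 and Folr2) were abundant, and Mrc1, which the selection did not read, had at least 1 UMI in each of the 314 wild-type and 297 knock-in cells.

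Macrophages of arteries are long-lived phagocytes that sit mostly in the outer layer of the wall and take up debris and lipoproteins. They are sustained by colony stimulating factor 1 through its receptor Csf1r. In many mouse tissues the macrophages that carry Lyve1, Folr2, Mrc1 (mannose receptor), Cd163 (hemoglobin scavenger receptor) and Timd4 (phosphatidylserine receptor) form a perivascular type with little MHC class II, whereas macrophages recently derived from blood monocytes carry Ccr2 and more MHC class II. The transcription factors PU.1 (Spi1) and Maf act in macrophage identity.

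Promoter sequences of marker genes are shown here because their RNA defines the cells. Each sequence is the 250 bases before an annotated start, 5′ to 3′ on the gene's strand, from RefSeq on mouse build GRCm38.p6. Both strands were searched for the letters GAGGAA, the core bound by PU.1, and TGCTGA, part of the element bound by Maf proteins. The capitals mark GAGGAA read on the opposite strand in the Mrc1 promoter at chr2:14229164-14229413 (plus strand) and TGCTGA in 1 of the promoters of Folr2 at chr7:101857191-101857440 (minus strand). Promoters with matches were picked for printing after the matches were seen.
Mrc1: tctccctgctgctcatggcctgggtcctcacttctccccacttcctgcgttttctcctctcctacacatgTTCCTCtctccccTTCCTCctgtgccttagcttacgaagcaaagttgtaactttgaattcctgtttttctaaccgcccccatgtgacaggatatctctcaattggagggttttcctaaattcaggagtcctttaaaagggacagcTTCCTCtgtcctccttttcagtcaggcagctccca
Folr2: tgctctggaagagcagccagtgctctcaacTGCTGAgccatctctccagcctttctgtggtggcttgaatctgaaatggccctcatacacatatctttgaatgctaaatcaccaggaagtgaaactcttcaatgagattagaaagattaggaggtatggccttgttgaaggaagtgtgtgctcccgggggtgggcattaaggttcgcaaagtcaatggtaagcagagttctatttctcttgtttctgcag
The Mrc1 promoter held GAGGAA 3 times, with no overlap between the copies. Of the 30 genes of a list of resident macrophage genes, 25 had a promoter in the table. GAGGAA stood in a promoter of 15 of these 25 genes, against 25.9% of the 27025 genes in the table, and TGCTGA in a promoter of 7, against 18.0% of them. A match is a string of letters and not a measured binding site, and binding was not measured here.

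Lyve1 and Folr2 mostly occurred in the same cells. Both genes had a UMI in 300 of the 314 wild-type macrophages (95.5%) and in 277 of the 297 knock-in ones (93.3%). Folr2 alone was seen in 14 and 17 cells, and Lyve1 alone in 0 and 3. The median per cell was 13 UMIs of Lyve1 and 17 of Folr2 in the wild-type, and 9 and 13 in the knock-in library. Summed over the cells, Lyve1 (ENSMUSG00000030787) reached 1177 CPM in the wild-type and 969.9 CPM in the knock-in macrophages, and Folr2 (ENSMUSG00000032725) 1237 and 1151 CPM. Few cells lay near the limit of 3 UMIs. Of the gated wild-type cells, 39 had no UMI of either gene, 7 had 1, 2 had 2, 4 had 3, 2 had 4 and 1 had 5. Of the gated knock-in cells, 24 had none, 4 had 1, 2 had 2, 2 had 3, 2 had 4 and 7 had 5. Near the limit of 20 gate UMIs, 2 wild-type cells and no knock-in cell with enough Lyve1 and Folr2 had 15 to 19 gate UMIs, and 1 wild-type cell had 20 to 24. In cells with under 3 gate UMIs, most of them stromal cells, a Lyve1 UMI was seen in 3.52% of those from the wild-type library and 3.62% of those from the knock-in library, and a Folr2 UMI in 3.03% and 1.12%.

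The macrophages made up a larger share of the wild-type than of the knock-in library. They were 8.49% of kept wild-type cells (exact binomial interval 7.61 to 9.44) and 4.63% of kept knock-in cells (4.13 to 5.17). Among female cells, called by Xist without Y-linked RNA, the shares were 8.63% (7.09 to 10.4) and 4.55% (3.82 to 5.37). Among male cells, called by Y-linked RNA without Xist, they were 8.74% (7.57 to 10.0) and 5.72% (4.77 to 6.79). These shares leave out 322 wild-type and 1178 knock-in cells with neither mark, and 100 and 186 with both. Of the cells with neither mark, 18 and 31 were Lyve1 Folr2 macrophages. The wild-type share was the higher of the pair in each sex. When every cell was first thinned to 3000 UMIs, which left out 77 wild-type and 408 knock-in cells, and the limits were applied again, the shares were 7.27% (6.44 to 8.16) and 4.04% (3.56 to 4.57). Among cells of 5000 to 20000 UMIs they were 15.3% and 5.37%. The median depth was 21079 UMIs in wild-type cells with under 3 gate UMIs and 15398 in the wild-type macrophages. It was 11807 in knock-in cells with under 3 gate UMIs. The upper limit of 20000 thus removed a larger part of the other wild-type cells than of the wild-type macrophages, which raises the wild-type share. Of the gated macrophages alone, the Lyve1 Folr2 cells were 86.7% (82.8 to 90.1) in the wild-type and 90.8% (87.2 to 93.7) in the knock-in library, and after thinning 77.4% and 78.9%. The share of all kept cells also depends on how fully the outer layer was dissected away and how many stromal cells were released and loaded. In cells with under 3 gate UMIs, fibroblast markers stood at 70196 CPM in the wild-type and 36922 CPM in the knock-in library. Smooth muscle markers stood at 4510.3 and 21329.7 CPM. Dissection, release and loading cannot be told apart here from the number of macrophages in the wall.

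**Figure D1:**
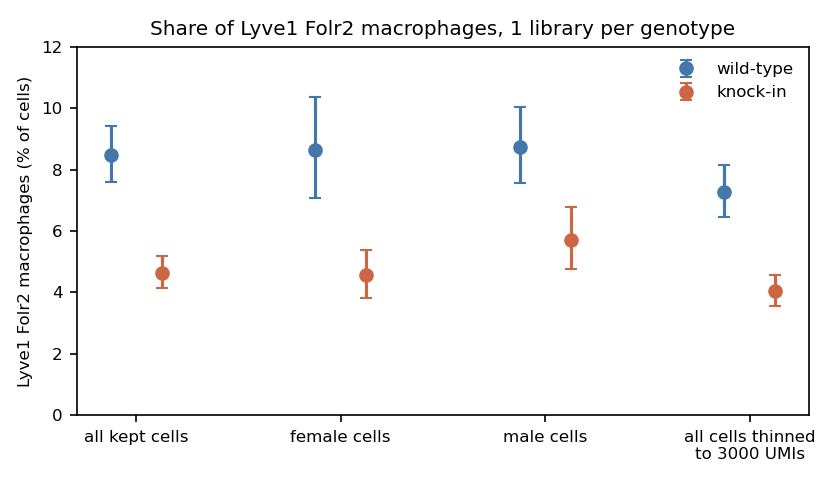
Share of kept cells that were Lyve1 Folr2 macrophages, in percent, for the wild-type and knock-in library, over all kept cells, female cells, male cells and all cells thinned to 3000 UMIs. Bars are exact 95% binomial intervals for counting error. The wild-type share was the higher of each pair, 8.49% against 4.63% over all kept cells.

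Beside the other gated macrophages of the same library, the Lyve1 Folr2 cells were high in a broad set of tissue macrophage genes and low in monocyte and antigen presentation genes. The selection set this contrast, so the ratios are a description. Of 11446 genes measured (at least 10 UMIs), 12% were at least 1.5-fold higher in both libraries and 8.95% lower, and 26 of the 30 resident macrophage genes were among the higher and 0 among the lower. Mrc1 stood at 3412 CPM against 716 CPM in the wild-type and 3469.9 against 709.8 CPM in the knock-in library. Cd163 was higher by 3.66 and 3.54 on the log2 scale, Cbr2 (a carbonyl reductase) by 3.81 and 3.67, F13a1 (the A chain of coagulation factor XIII) by 3.17 and 2.93, and Stab1 (a clearance receptor of the stabilin family) by 3.12 and 3.03. Selenop, which encodes the selenium carrier selenoprotein P, was higher by 3.12 and 3.52.

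Some genes were close to absent from the other gated macrophages. Ednrb, the endothelin receptor type B, reached 836 CPM against 10.0 CPM in the wild-type and 717 against 16.6 CPM in the knock-in library. Ccl8, a chemokine, reached 608 against 2.51 CPM and 1079.5 CPM against no UMI. Cd209f and Cd209g, lectins of the DC-SIGN family whose near copies can share reads, reached 215 and 165 CPM in the wild-type and 147 and 64.5 CPM in the knock-in cells. Cd209g had 0 UMIs in the other gated macrophages of either library. Plekhg5, a guanine nucleotide exchange factor, was higher by 6.23 and 3.68, and Chp2, a calcium-binding protein, by 4.15 and 5.77. The exceptions within the resident list were Cd209d, Vsig4, Cd302 and Fcrls, which did not pass 1.5-fold upward in both libraries. Vsig4, a complement receptor, was higher by 4.65 in the wild-type and stood at -0.27 in the knock-in library. Among the other gated macrophages, a Vsig4 UMI was seen in 2.08% (48 wild-type cells) and 3.33% (30 knock-in cells). Both ratios, and the place of Vsig4 among these exceptions, therefore rest on very few comparison cells.

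Genes of monocytes and of antigen presentation were among those lower in the Lyve1 Folr2 cells. Fn1 (fibronectin) stood at 183 CPM against 2137 CPM in the wild-type and 75.7 against 2177 CPM in the knock-in library. Il1b (interleukin 1 beta) stood at 44.6 against 890.0 CPM and 12.8 against 636 CPM. Ccr2, the receptor that brings monocytes into tissue, was lower by 3.58 and 3.83 on the log2 scale, and Ear2, an eosinophil-type ribonuclease, by 6.05 and 9.03. Napsa, Cytip, Cd226 and Cd24a had log2 ratios between -4.92 and -5.82 in the wild-type and between -5.99 and -7.46 in the knock-in library. Of 16 antigen presentation genes, 9 were lower in both libraries and 2 higher, beside 8.95% lower and 12% higher over all genes. H2-Ab1, a chain of MHC class II, had ratios of -2.97 and -2.58. Of 10 monocyte genes, 5 were lower in both libraries and 0 higher, while 7 of 18 pan-macrophage genes were higher and 1 lower.

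**Figure D2:**
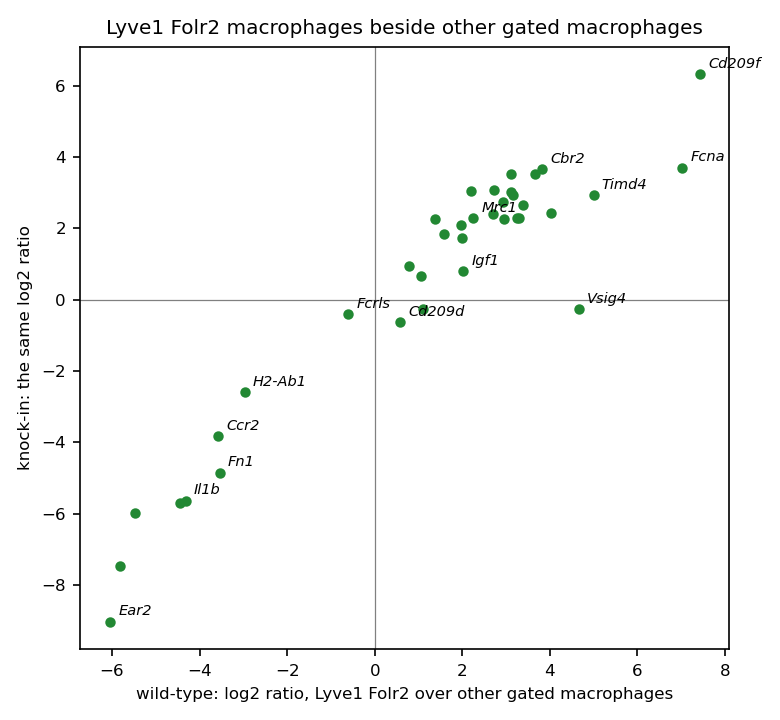
Each point is a gene: log2 ratio of CPM in Lyve1 Folr2 macrophages over other gated macrophages in the wild-type (x axis) and knock-in library (y axis). It shows the resident macrophage list plus 8 genes lower in these cells, leaving out Cd209g, which had 0 UMIs in the other gated macrophages. Most resident genes lie at the upper right, Fcrls and Cd209d lie near 0, and Il1b and Ear2 lie at the lower left.

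RNA of other cell types was measured in the same cells. Fibroblast markers together made up 6093 CPM in the wild-type and 3031 CPM in the knock-in macrophages, against 70196 and 36922 CPM in cells with under 3 gate UMIs. Smooth muscle markers made up 361 and 2599.7 CPM, against 4510.3 and 21329.7 CPM. Blood endothelial markers summed to 15.2 and 21.4 CPM. Lymphatic endothelial markers, of interest because Lyve1 also marks that endothelium, summed to 20.9 and 24.8 CPM, with 4 of 7 at 0 in each library. Markers of T and NK cells summed to 5.26 and 10.4 CPM, and those of neutrophils to 37.8 and 61.6 CPM. Ly6c2 of classical monocytes and Flt3 of dendritic cells had no UMI in any of the cells. With a limit of 3 counts, counts of 0 in 314 and 297 cells allow shares of cells with a UMI of up to 0.955% and 1.01%. In 18 wild-type (5.73%) and 19 knock-in macrophages (6.40%), 8 stromal genes (Col1a1, Col1a2, Col3a1, Dcn, Lum, Acta2, Myh11 and Tagln) took over 2% of UMIs. A doublet score set to mark the highest-scoring 109 wild-type and 330 knock-in cells marked all 18 and 19 of them. Without these 37 cells the fibroblast markers summed to 775 and 515 CPM and the smooth muscle markers to 116 and 572 CPM. Values without these cells are given below for the genes and lists that they move most.

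The genotype comparison asked which genes of these macrophages differed between the libraries. The mix of sexes was not the same in both. Of the wild-type macrophages 32.5% were called female and 58.3% male, against 44.8% and 41.1% of the knock-in ones. Ratios over all macrophages therefore compare different mixes of sexes. Over 9799 genes with at least 50 UMIs, 246 (2.51%) were at least 2-fold higher in the knock-in cells and 209 (2.13%) at least 2-fold lower, and the median log2 ratio of knock-in over wild-type was -0.01. Without the 37 cells rich in stromal RNA, 163 genes were higher and 107 lower. In female cells alone 251 genes were higher and 89 lower, in male cells 103 higher and 181 lower, and with doublets removed 106 higher and 165 lower, so the balance between the directions differed between these settings. The genes highest by the naming rule included clock genes and the semaphorin Sema6a. The interferon-inducible gene Ifi202b led the lower genes.

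Sema6a encodes a transmembrane semaphorin, a guidance ligand. It had 34 UMIs (6.63 CPM) in the wild-type and 165 UMIs (43.1 CPM) in the knock-in macrophages, a log2 ratio of 2.70 (2.16 to 3.28). In cells with under 3 gate UMIs the ratio was -0.67, the opposite direction. Ankrd28, a scaffold subunit of a protein phosphatase, was at 11.7 and 44.1 CPM, with a ratio of 1.92 in the macrophages and 0.22 in the cells with under 3 gate UMIs. Tnfaip2, a gene induced by tumor necrosis factor, was at 32.4 and 103 CPM, with ratios of 1.66 and -0.17. Ifih1, which encodes the sensor of double-stranded RNA MDA5, was at 46.2 and 129.7 CPM, with ratios of 1.49 and -0.34. In the other gated macrophages Ifih1 went the opposite way, with 99 wild-type and 19 knock-in UMIs and a ratio of -1.82. Oasl1, an inhibitor of interferon production, was at 16.0 and 59.8 CPM, with ratios of 1.90 in the macrophages, -2.53 in the other gated macrophages and -0.31 in the cells with under 3 gate UMIs. For Sema6a, Ankrd28, Tnfaip2, Ifih1 and Oasl1 the knock-in library was thus higher in the macrophages and either lower, or higher by at most 0.22, in the cells with under 3 gate UMIs. The cells with under 3 gate UMIs are a mix of cell types, and their marker RNA differed between the libraries. Fibroblast markers stood at 70196 CPM in the wild-type and 36922 CPM in the knock-in library, and smooth muscle markers at 4510.3 and 21329.7 CPM. The other gated macrophages, 48 wild-type and 30 knock-in cells, differed in marker RNA as well. Their fibroblast markers stood at 3190 and 12432 CPM, smooth muscle markers at 70.2 and 1375 CPM and erythroid markers at 0 and 5631 CPM. In every genotype ratio given for either group, here and below, genotype and the mix of cell types cannot be told apart. Whether either group and the Lyve1 Folr2 macrophages differ in their response could not be tested.

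Other genes differed by similar amounts in the remaining cells. Wdr89, a gene with near copies, had ratios of 1.73 in the macrophages and 2.06 in cells with under 3 gate UMIs, and Aqp1, a water channel, 1.59 and 1.78. Because copies can share reads, the level of Wdr89 is uncertain. Mucl1 had 0 UMIs in the wild-type macrophages, while the knock-in macrophages had 186, all of them in 1 cell.

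Ifi202b (ENSMUSG00000026535), a member of the interferon-inducible p200 family, had 518 UMIs (101 CPM) in the wild-type and 17 UMIs (4.44 CPM) in the knock-in macrophages. Its log2 ratio was -4.51 (-5.30 to -3.81), the lowest of the genes named, and it was -4.90 in female and -4.13 in male cells. With cells thinned to 3000 UMIs, 26.2% of wild-type macrophages (21.4 to 31.4) and 2.70% of knock-in macrophages (1.17 to 5.26) had an Ifi202b UMI, against 57.0% and 5.05% unthinned. In thinned cells with under 3 gate UMIs, whose median depth before thinning was 21079 and 11807 UMIs, the shares were 2.15% and 0 of 5665 cells, which allows a share of up to 0.0530%. Cells with under 3 gate UMIs showed the same direction, with 9.04 CPM in the wild-type and no UMI in the knock-in library. As the strain of neither group is known here, strain and the Mgp mutation cannot be told apart for Ifi202b, nor for Rnaset2a, Rnaset2b and Wdr89, which also differed in the cells with under 3 gate UMIs. Apold1, an early response gene best known in endothelium, was at 31.8 and 7.05 CPM (log2 ratio -2.17), and its ratio in cells with under 3 gate UMIs was 0.91. Gdpd3, a lysophospholipase, was at 31.8 and 8.09 CPM (ratio -1.97), with -3.12 in female and -0.90 in male cells. Rnaset2a and Rnaset2b, near-identical lysosomal ribonuclease genes whose reads may be split between them, had ratios of -1.80 and -1.76, and -2.30 and -2.03 in cells with under 3 gate UMIs. Adap2os, Cdk2ap1 and Hypk had ratios of -1.52, -1.51 and -1.47, close to the -1.57, -1.58 and -1.55 of the cells with under 3 gate UMIs.

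Among genes made by few of the macrophages, Il1b stood at 44.6 CPM in the wild-type and 12.8 CPM in the knock-in cells (log2 ratio -1.80), and 20.1% and 16.3% of its UMIs came from 1 cell in each library. Lyz1, the Paneth-type lysozyme and a near copy of Lyz2, stood at 61.8 and 20.1 CPM, and 41.0% of its wild-type UMIs came from 1 cell. The members of the resident list with the lowest genotype ratios were Fcna and Cd209g. Fcna, which encodes ficolin A, a lectin of the complement pathway, had 2509 wild-type and 830 knock-in UMIs, at 489 and 217 CPM (log2 ratio -1.17, -1.29 to -1.06). After thinning to 3000 UMIs, Fcna was found in 52.1% of wild-type (46.4 to 57.7) and 34.5% of knock-in macrophages (29.1 to 40.2), against 82.8% and 64.6% unthinned. The cells with under 3 gate UMIs stood at 0.189% and 0.0883% after thinning. Its ratio was -1.5 in female and -0.95 in male cells. Cd209g had 849 and 247 UMIs and a ratio of -1.36 (-1.57 to -1.15).

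**Figure D3:**
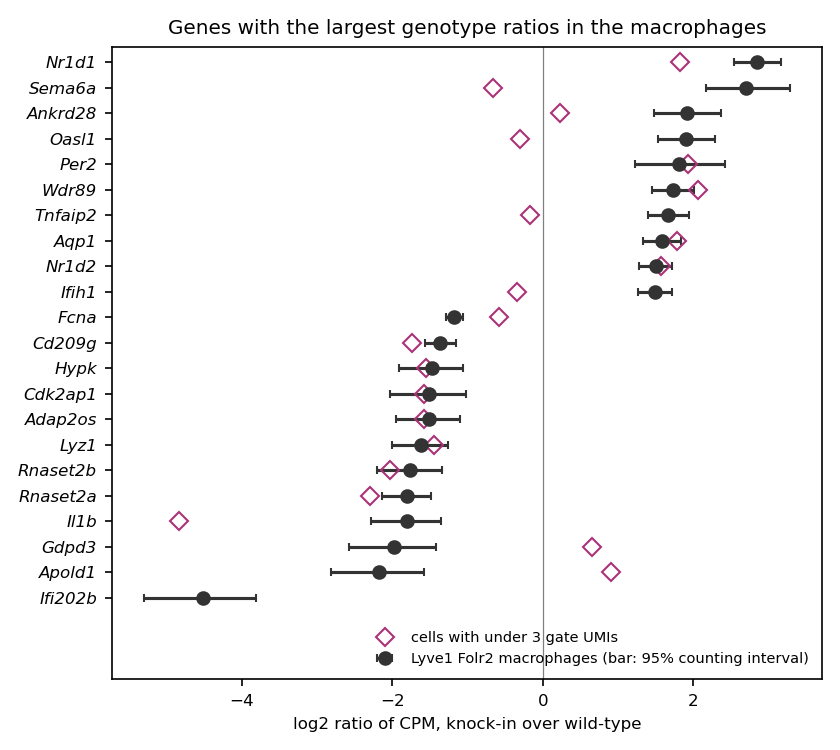
Log2 ratio of CPM, knock-in over wild-type, for the genes named by rule in the Lyve1 Folr2 macrophages (filled circles with 95% counting intervals) and in kept cells with under 3 gate UMIs (open diamonds). Ifi202b has no diamond because the knock-in cells had no UMI, and Mucl1, seen in 1 cell, is not drawn. Nr1d1 lies at 2.85 and Ifi202b at -4.51, and Sema6a, Oasl1, Tnfaip2 and Ifih1 have diamonds on the other side of 0.

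Clock genes differed together. The circadian clock is a loop in which Arntl (Bmal1), Clock and Npas2 activate Per, Cry, Nr1d and Dbp genes, whose products feed back on the activators. Of 18 clock genes measured, 10 were at least 1.5-fold higher in the knock-in macrophages and 3 lower, with a median log2 ratio of 0.85, against 11.1% higher and 11.1% lower among 12946 genes with at least 10 UMIs. Dbp, an output transcription factor, had 66 UMIs (12.9 CPM) in the wild-type and 427 UMIs (111 CPM) in the knock-in cells, a log2 ratio of 3.12 (2.74 to 3.51). Nr1d1, the repressor of Arntl also called Rev-erb alpha, was at 20.5 and 147 CPM (2.85, 2.54 to 3.16). The repressors Per2 and Cry2 were at 6.63 and 3.70 CPM in the wild-type and 23.2 and 14.4 CPM in the knock-in cells. Tef, Nr1d2 and Per3 had ratios of 1.54, 1.5 and 1.23, and Per1, at 50.9 and 76.0 CPM, had 0.58. These genes were higher in the knock-in library in female and in male macrophages alike. The activator Arntl went the opposite way, from 59.8 CPM in the wild-type to 24 CPM in the knock-in cells (-1.32, -1.67 to -0.98), with -0.55 in female and -2.17 in male cells. Clock had -0.29, Nfil3, a repressor of Dbp targets, -0.65, and Cry1 0.14. Npas2 had 34 and 2 UMIs, and its direction changed without the 37 stromal-rich cells (0.43).

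The same genes differed in the other cells of the libraries, with different sizes. In cells with under 3 gate UMIs, Dbp had a ratio of 3.6, Nr1d1 of 1.82 and Arntl of -3.71. Ciart, a clock repressor, had 0.91 in the macrophages and 3.37 in the cells with under 3 gate UMIs, while Cry2 had 1.95 and 0.29. At 3000 UMIs per cell, Dbp was found in 4.79% (2.71 to 7.78) of wild-type and 21.6% (17.1 to 26.8) of knock-in macrophages. Unthinned, these shares were 17.5% and 54.2%. Cells with under 3 gate UMIs had Dbp in 5.90% and 54.4% at that depth. Clock genes are active in nearly every cell type, so no cell type here gives a background share for them. Nr1d1 was found in 4.79% and 32.4% of thinned macrophages (19.4% and 64.0% unthinned), and in 15.9% and 43.7% of the thinned cells with under 3 gate UMIs. When the free RNA profile of near-empty barcodes was subtracted, the median of the clock list was 0.66 in place of 0.85. The part subtracted was set with the stromal-rich cells included and may be too large. No source used here gives the time of day at which each library was collected, so time and genotype cannot be told apart.

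Promoters of clock genes are shown because the genes move together in these cells. The letters searched on both strands were the E-box CACGTG, bound by Arntl with Clock, the D-box TTATGTAA, bound by Dbp, Tef and Hlf, and AGGTCA, bound by ROR and Nr1d proteins. Capitals mark the E-box in 1 of the promoters of Tef (chr15:81811164-81811413, plus strand) and in Ciart (chr3:95882229-95882478, minus strand), and the D-box in Per3 (chr4:151044666-151044915, minus strand), on GRCm38.p6.
Tef: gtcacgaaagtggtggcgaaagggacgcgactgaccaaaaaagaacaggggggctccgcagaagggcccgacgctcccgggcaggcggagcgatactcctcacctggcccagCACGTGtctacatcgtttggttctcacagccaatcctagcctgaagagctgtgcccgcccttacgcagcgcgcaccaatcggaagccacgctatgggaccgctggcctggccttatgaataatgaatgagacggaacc
Ciart: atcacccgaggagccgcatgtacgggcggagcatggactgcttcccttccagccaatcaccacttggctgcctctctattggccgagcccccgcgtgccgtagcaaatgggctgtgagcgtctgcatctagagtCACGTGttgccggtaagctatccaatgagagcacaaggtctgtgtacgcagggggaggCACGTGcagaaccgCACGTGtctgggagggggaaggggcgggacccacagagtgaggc
Per3: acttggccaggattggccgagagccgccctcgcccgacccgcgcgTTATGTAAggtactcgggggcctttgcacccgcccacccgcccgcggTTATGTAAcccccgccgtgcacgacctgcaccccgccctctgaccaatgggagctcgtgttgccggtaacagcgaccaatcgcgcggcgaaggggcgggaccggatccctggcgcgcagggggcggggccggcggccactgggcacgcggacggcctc
The E-box stood 3 times in Ciart and the D-box 2 times in Per3, with no overlap between the copies. Of 16 clock genes with a promoter in the table, 5 (Bhlhe41, Ciart, Cry1, Per1 and Tef) held the E-box, against 6.86% of the 27025 genes in the table, and 1 held the D-box, against 0.977% of them. AGGTCA stood in 4 of the 16, against 15.8%. Of the 25 resident macrophage genes none held the E-box in this window. Dbp, Nr1d1 and Arntl held no match to the E-box or the D-box within 250 bases, which says only that these letters are not in this window.

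**Figure D4:**
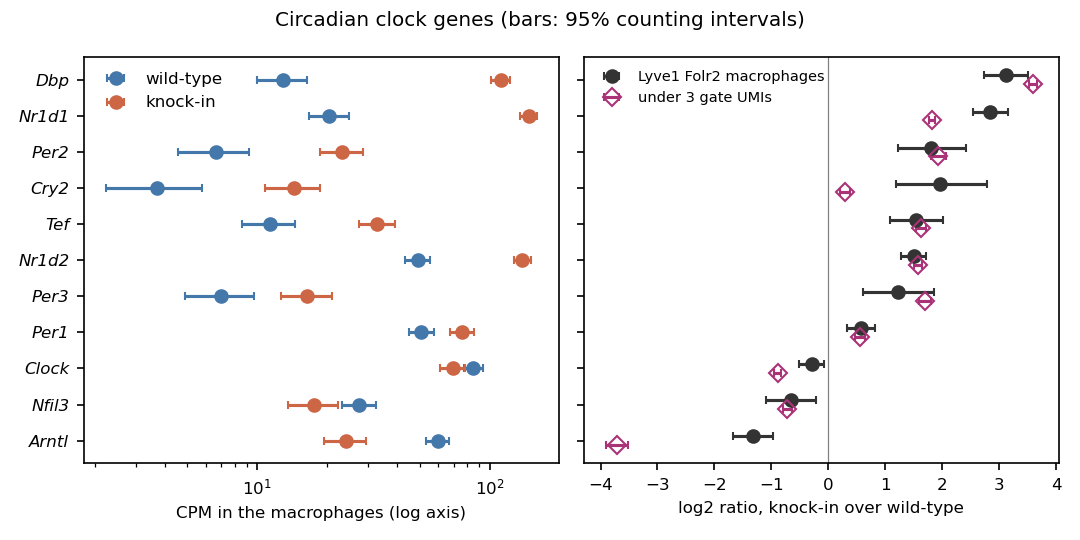
Left, CPM of 11 clock genes in the Lyve1 Folr2 macrophages of each library on a log axis with exact Poisson intervals. Right, their log2 ratio of knock-in over wild-type in the macrophages (filled circles) and in cells with under 3 gate UMIs (open diamonds), with 95% counting intervals. Dbp lies at 3.12 and 3.6, Arntl at -1.32 and -3.71.

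The core of the tissue macrophage programme was at similar levels in the 2 genotypes. Of the 30 resident macrophage genes, 0 were at least 1.5-fold higher and 3 (Fcna, Cd209g and Vsig4) lower in the knock-in cells, with a median log2 ratio of -0.05. Without the stromal-rich cells 4 were lower. Over all genes 11.1% were at least 1.5-fold higher and 11.1% lower. Mrc1 stood at 3412 and 3469.9 CPM (0.02, -0.01 to 0.06) and Cd163 at 793 and 770.0 CPM (-0.04). F13a1 stood at 4104 and 4369 CPM, and Maf at 1193 and 1268 CPM. Selenop had the highest ratio of the list over all cells, with 3283 and 4175 CPM (0.35, 0.32 to 0.38), and Stab1 had 0.30. Timd4 stood at 160.2 and 127 CPM (-0.34, -0.50 to -0.17), with -0.86 in female and 0.04 in male cells. Unthinned, Timd4 had a UMI in 71.7% and 57.9% of cells, but in 30.7% and 27.7% at 3000 UMIs per cell, where the intervals (25.6 to 36.1 and 22.7 to 33.2) overlap. Vsig4 stood at 31.6 and 12.3 CPM (-1.36), Cd209f at 215 and 147 CPM (-0.54), and Ltc4s, the leukotriene C4 synthase, at 471 and 337 CPM (-0.49). None of the 18 pan-macrophage genes passed 1.5-fold in either direction. Csf1r was at 1004 and 1313 CPM (0.39).

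Receptors and secreted proteins of clearance were also mostly close between the libraries. For each list of this paragraph, the share over all genes was 11.1% at least 1.5-fold higher and 11.1% lower. Of 17 scavenger and efferocytosis genes, 1 was higher and 0 lower. The higher gene was Mfge8, a bridge between dying cells and phagocytes, at 31.4 and 83.0 CPM (1.40), and its ratio in cells with under 3 gate UMIs was 1.33. Mertk, a receptor for dying cells, stood at 205 and 224 CPM, and its ligands Gas6 and Pros1 had ratios of -0.12 and 0.41. Gas6, like MGP, is a vitamin K-dependent protein. Of 19 complement and Fc receptor genes, 1 was higher (C4b, 0.72) and 1 lower (Vsig4). C4b had -0.04 in female and 1.21 in male cells. Of 17 iron and heme genes, Tfrc, the transferrin receptor, was the higher one (47.7 and 74.6 CPM, 0.64), and Slc40a1, the iron exporter ferroportin, the lower one (59.4 and 37.8 CPM, -0.65). Both ratios had the same direction in each sex. Of 20 lipid handling genes, Pparg (0.68) was higher, and Fabp5 (-1.16) and Lpl (-0.62) lower. Fabp5 changed direction without the stromal-rich cells (0.25). Apoe stood at 11896 and 10344 CPM and Trem2 at 113 and 141 CPM. Of 16 folate and hyaluronan genes, 0 were higher (2 without the stromal-rich cells) and 1 lower, namely Mthfd2 (-0.77), an enzyme of mitochondrial folate metabolism. Cd44, the main cell surface receptor for hyaluronan, stood at 342 and 442 CPM (0.37).

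Genes of antigen presentation differed little as a list, and H2-Aa, a chain of MHC class II, was the only one of them at least 1.5-fold higher in the knock-in library. H2-Aa stood at 589 CPM in the wild-type and 958 CPM in the knock-in cells (0.70, 0.63 to 0.77), H2-Ab1 had 0.50, H2-Eb1 0.49 and the invariant chain Cd74 0.40. In female cells H2-Aa had 0.87 and Cd74 0.59, and in male cells 0.22 and -0.04. Of 16 antigen presentation genes, 1 was higher and 2 lower, with a median of 0.061. The lower ones were Tap1, a peptide transporter for MHC class I, at 36.4 and 19.8 CPM (-0.88), and H2-DMb2, with 16 and 2 UMIs. Of 18 interferon response genes measured, 1 was higher and 6 were lower, with a median of -0.38, against 11.1% of all genes in each direction. With cells thinned to 3000 UMIs the median was 0.00842. Irf7, a master regulator of interferon genes, had -0.81, Bst2 -0.68 and Zbp1 -0.76, each lower in both sexes. Ifit1 had 0.87, with -0.28 in female and 1.25 in male cells. Ifih1 and Oasl1, named above, are not in this list.

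Of 25 cytokine and chemokine genes measured, 3 were higher (Ccl8, Il10 and Cxcl10) and 3 lower (Il1b, Ccl6 and Il6), with a median of -0.03. These counts are close to the 11.1% of all genes in each direction. Ccl6 stood at 1286 and 697 CPM (-0.88, -0.95 to -0.82), with -0.92 in female and -0.95 in male cells. Ccl8 stood at 608 and 1079.5 CPM (0.83), but its ratio was 0.10 in female and 1.55 in male cells. Il10, an anti-inflammatory cytokine, stood at 14.6 and 29.8 CPM (1.03), with -0.08 and 1.65. Tnf stood at 164 and 241 CPM (0.55). The chemokines Ccl2, Ccl7 and Cxcl2 had ratios of -0.10, -0.06 and -0.12. Retnla, a secreted product of alternatively activated macrophages, stood at 2592 and 1531 CPM (-0.76), with -0.24 in female and -1.40 in male cells, while Mgl2, a lectin of the same activation state, had 0.05. Of 17 genes of the CSF1 axis and myeloid factors, Id2 was higher (0.72) and the transcription factor Klf2 lower, at 1127 and 701 CPM (-0.68), with -0.68 in female and -0.67 in male cells. Of 20 immediate early and dissociation genes, 0 were higher and 1 was lower (Ier2, -0.62). For this list and the CSF1 list too, the share of all genes was 11.1% in each direction.

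Several genes of the BMP pathway, the pathway of the study's question, were higher in the knock-in macrophages, some of them on few UMIs and in female cells more than in male ones, a difference that was not tested. Bmp2, a ligand, stood at 84.4 CPM in the wild-type and 97.9 CPM in the knock-in macrophages (0.21, 0.01 to 0.42), against 18.7 and 22.9 CPM in cells with under 3 gate UMIs. Of the receptors, Bmpr2 stood at 84.2 and 99.97 CPM (0.25), and Bmpr1a at 18.7 and 34.5 CPM (0.88), with 2.19 in female and 0.05 in male cells. The signal transducers Smad1 and Smad5 had -0.08 and 0.12. Of 17 BMP genes measured, 6 were higher and 1 was lower, with a median of 0.34, against 11.1% of all genes in each direction. The median was 0.063 in male cells, 0.19 with free RNA subtracted and 0.19 with a mitochondrial cap of 5%. Id1, a direct BMP target, had 30 and 57 UMIs (5.85 and 14.9 CPM, ratio 1.35). Its ratio in female cells was 3.26, that in male cells -0.09, and it stood at 95.5 and 135 CPM in the cells with under 3 gate UMIs. Id2 had 106 and 174 CPM (0.72), 0.72 in female and 0.76 in male cells. Id3 went the opposite way, with 153 and 98.7 CPM (-0.63), and -0.51 without the 37 stromal-rich cells. The feedback inhibitors Smad6 and Smad7 had 6 and 16 and 52 and 69 UMIs, and Smad7 had 2.21 in female and -0.39 in male cells. Of the stromal-rich macrophages, 2 wild-type and 8 knock-in cells were female. The part of stromal RNA in the ratios of Id1, Smad6, Smad7 and Bmpr1a was not tested beyond the values without those cells, which were 1.57, 3.01, 0.72 and 1.10.

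Of 15 TGF-beta pathway genes, 5 were higher and 0 lower, with a median of 0.44, against 11.1% of all genes in each direction. Without the stromal-rich cells 4 of 14 were higher and 0 lower, and the median in male cells was 0.20. The receptor Tgfbr1 stood at 66.5 and 104 CPM (0.65, 0.44 to 0.86) and had 0.66 in cells with under 3 gate UMIs. Tgif1, a repressor of TGF-beta targets, stood at 38.2 and 60.6 CPM (0.66) and had -0.32 in those cells. The ligand Tgfb1 stood at 224 and 215 CPM (-0.06). Of 17 growth factor genes, 2 were higher and 0 lower. Pdgfa, a mitogen of smooth muscle cells and fibroblasts, stood at 19.9 and 37.1 CPM (0.90), and Vegfa had 3 and 10 UMIs. Igf1 stood at 396 and 466 CPM (0.24), and Pdgfc at 157 and 215 CPM (0.46).

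Matrix remodelling genes were more often lower than higher in the knock-in cells, with 0 of 22 higher, 10 lower and a median of -0.47, against 11.1% of all genes in each direction. Without the stromal-rich cells 1 was higher, 5 were lower and the median was -0.21, and among cells of 5000 to 20000 UMIs the median was 0.0617. The matrix metalloproteinases Mmp9 and Mmp19 stood at 55.5 and 35.5 CPM (-0.65) and 38.2 and 15.9 CPM (-1.26), and had -0.63 and -1.20 without those cells. Fn1 stood at 183 and 75.7 CPM (-1.28), but had 0.79 in female and -1.59 in male cells. Sparc and Ctsk, strong in stromal cells, had -0.64 and -1.11 over all cells and 0.16 and 0.25 without the stromal-rich ones. Ctsb and Lgmn, lysosomal proteases, stood at 2354 and 2742 CPM and 866 and 941 CPM.

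A part of the macrophages was dividing or carried RNA of dividing cells. At least 5 UMIs of 10 mitotic genes were found in 25 of 314 wild-type (7.96%) and 13 of 297 knock-in macrophages (4.38%). At 3000 UMIs per cell these shares were 4.15% (2.23 to 7.0) and 2.36% (0.956 to 4.81), so the difference was within the counting intervals. Cells with under 3 gate UMIs stood at 2.71% and 0.900% at the same depth. Free RNA of near-empty barcodes held these 10 genes at 218 CPM in the wild-type and 114 CPM in the knock-in library, against 423 and 327 CPM in the macrophages. The mitotic cells were deeper than the rest, with medians of 23421 against 15003 UMIs in the wild-type and 20667 against 11611 in the knock-in library. Of 19 cell cycle genes, 0 were higher and 3 lower in the knock-in macrophages, against 11.1% of all genes in each direction. The cell cycle median was -0.28. It was 0.46 among cells of 5000 to 20000 UMIs, 0.16 in female cells and -0.82 with doublets removed.

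The macrophages varied widely in MHC class II. The summed level of H2-Aa, H2-Ab1, H2-Eb1 and Cd74 had a median of 90.7 CPM per cell in the wild-type and 183 CPM in the knock-in library. The upper quartile lay at 1056 and 3691 CPM and the highest cell at 50871 and 57052 CPM, while 103 cells in each library had none. More than 1000 CPM was found in 82 wild-type and 99 knock-in macrophages, and 30 and 37 cells lay near that level, between 500 and 2000 CPM. Whether the cells with much MHC class II form a separate type was not tested. A Ccr2 UMI was found in 22 (7.01%) wild-type and 27 (9.09%) knock-in macrophages, and 17 and 19 of these had over 1000 CPM of MHC class II. Ranked by MHC class II within each library, the upper-ranked 157 and 149 cells held Ccr2 at 92.7 and 84.9 CPM, against 0.761 and 2.89 CPM in the lower-ranked 157 and 148. Retnla stood at 4122 against 1136 CPM in the wild-type and 2517 against 698 CPM in the knock-in library. Cd209g and Ccl8 were higher in the upper-ranked cells as well, by 1.18 and 0.97, and by 0.76 and 0.61 on the log2 scale. Lyve1 was lower in the upper-ranked cells in both libraries, by 0.82 and 0.66, as were Stab1 (-0.57 and -0.41), Ltc4s (-0.62 and -0.67) and Timd4 (-0.34 and -0.45). The upper-ranked cells were also shallower, with medians of 14207 against 16384 UMIs and 11007 against 12732. Among cells with at most 2% stromal UMIs, Ccr2 was at 105 against 0.417 and 92.1 against 3.88 CPM, and Lyve1 had -0.78 and -0.76.

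**Figure D5:**
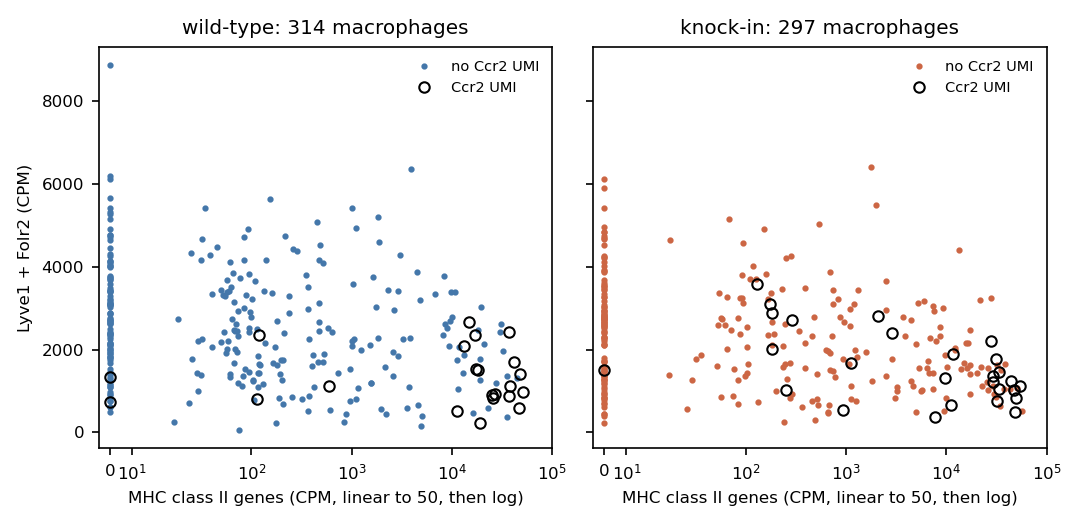
Each point is 1 Lyve1 Folr2 macrophage: summed MHC class II genes in CPM (x axis, linear to 50 and then logarithmic) and summed Lyve1 and Folr2 in CPM (y axis). Black circles are cells with a Ccr2 UMI (22 wild-type and 27 knock-in cells). Most of them lie at the right and below 3000 CPM of Lyve1 and Folr2.

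Ranked by Lyve1 and Folr2 in place of MHC class II, several of these genes changed in the opposite order. This ranking uses the genes that selected the cells and is a description. Among cells with at most 2% stromal UMIs, the upper-ranked cells were higher in Fcna, by 1.69 among wild-type and 2.03 among knock-in cells, in Timd4, by 0.97 and 1.14, in Ltc4s, by 1.08 and 1.03, and in Vsig4, by 1.61 and 1.36. They were lower in H2-Aa (-1.91 and -2.86), Ccr2 (-3.62 and -2.83), Cx3cr1, the fractalkine receptor (-0.83 and -1.73), and the proliferation gene Mki67 (-2.46 and -2.31). The mitotic cells likewise held less RNA of the resident genes on the CPM scale. Compared with the remaining macrophages, Lyve1 had log2 ratios of -0.58 and -0.75, Folr2 -0.51 and -0.57, Selenop -0.92 and -1.01, and Timd4 -0.99 and -0.92. Mrc1 moved less, with -0.36 and -0.58.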

How the data were processed

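The deposited values are raw UMI counts per gene and barcode over all barcodes, which the authors produced with Cell Ranger (version 7.1.0 per the submitters' processing notes). The reference build was not given in the sources used here. Samples were grouped by the genotype label, with 1 library per genotype, so no test was made and no p-value is given.

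Cells were selected by the limits stated at the head of the results. The selection, the gene lists and the groups of cells were chosen with earlier results of these data known, and a count of members can only be read beside the share of all genes given with it. UMIs were summed over the cells of a library and divided by the total UMIs of the same cells (CPM). Intervals, all at 95%, are exact Poisson for sums, exact conditional binomial for log2 ratios (knock-in over wild-type) and Clopper-Pearson for shares. The highest level a count of 0 allows was set at 3 counts per library. This was also used for shares of 0 cells, in place of the Clopper-Pearson limit. That limit is higher, at 1.17% for 0 of 314 cells. Single genes were called from 50 UMIs over both libraries at 2-fold. Lists took genes with at least 10 UMIs at 1.5-fold, and their medians had 0.5 added to each sum.

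A gene could be named by rule if it had 50 UMIs or more in total, reached 20 CPM in a library, and in its higher library had a CPM of at least 50% of that in cells with under 3 gate UMIs. The 12 highest and 12 lowest by the interval bound nearest 0 were taken, without mitochondrial, ribosomal, hemoglobin, immunoglobulin and sex-linked genes, unnamed gene models and the 6 genes of the selection. Of the contrast with other gated macrophages, 12 genes each way were ranked likewise in both libraries. Up to 4 genes per list were named by UMIs or size. Further genes named in a list were chosen after their values were seen. A few genes, 1 of them named by the rule, are not reported here.

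Doublets were not removed. As an alternative, the cells with the highest scrublet scores in scanpy 1.11.5, 0.8% per 1000 cells, were removed, and 49 of the 611 macrophages were among them. The score's automatic threshold called 4 wild-type and 120 knock-in cells. Free RNA was taken from barcodes under 100 UMIs. The part subtracted was 12.6% of wild-type and 11.6% of knock-in macrophage UMIs. It was set from the stromal share summed over all macrophages, 0.582% and 0.489%, against 4.61% and 4.23% in free RNA. That sum includes the stromal-rich cells, while the median macrophage had 0.0744% and 0.0527% stromal UMIs. The subtraction may therefore be too large. Only the log2 ratio and its interval were tried on simulated counts. These were Poisson counts, which do not hold the variation between cells, mice or libraries. The other steps were not simulated. Python 3.11.15, numpy 2.4.6, scipy 1.17.1, pandas 2.3.3 and matplotlib 3.10.9 were used.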

Additional observations from a re-analysis of the deposited data

Results flagged for a closer look

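In 6 of the 341 named or listed genes with at least 50 UMIs in each sex, the knock-in library was at least 1.5-fold higher in the macrophages of one sex and at least 1.5-fold lower in those of the other. The difference between the sexes was not tested, and each value rests on 1 library per genotype.

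Genes of cell division made up 3 of the 6. The genes compared came largely from chosen lists, including a list of 19 cell cycle genes, and no such count was made over all genes. Birc5 (survivin) had a log2 ratio of knock-in over wild-type of 0.97 in female and -1.20 in male macrophages, Ccnb2 (cyclin B2) 1.39 and -3.32, and Hmmr, a receptor for hyaluronan that also acts in mitosis, 0.85 and -1.44. Among macrophages with at most 2% stromal UMIs, Birc5 had 0.80 in female and -1.22 in male cells, and Ccnb2 1.10 and -3.31. Hmmr then had 0.51 (-0.37 to 1.41) in female cells, short of 1.5-fold, and -1.47 in male cells. Mitotic cells were few in each group, with 7 of 102 wild-type and 8 of 133 knock-in female cells and 13 of 183 wild-type and 4 of 122 knock-in male cells.

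The chemokine Cxcl10 had -1.01 in female and 1.84 in male macrophages. Fn1 (fibronectin) had 0.79 and -1.59 and Mfap5, a microfibril protein of stromal cells, 0.96 and -1.20. Among the macrophages with at most 2% stromal UMIs, Fn1 had ratios of -0.70 and -2.63, and Mfap5 stood at -0.06 and -1.54. Cxcl10 then had -1.02 and 1.74.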

How the results depend on the processing

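Shares, gene counts, list medians and named genes were recomputed with doublets removed, a mitochondrial cap of 5%, limits of 2 and 5 Lyve1 and Folr2 UMIs, at most 2% stromal UMIs, 5000 to 20000 UMIs, thinning to 3000 UMIs, each sex alone, the median gene ratio set to 0, equal weight per cell, free RNA subtracted and other UMI minimums. The ranking of macrophages among those with at most 2% stromal UMIs was added after seeing the data. The wild-type share of kept cells (8.49%) became 6.68% with the mitochondrial cap, 15.3% at 5000 to 20000 UMIs and 7.27% after thinning, and the knock-in share (4.63%) 5.37% at 5000 to 20000 UMIs, 5.72% in male cells and 4.04% after thinning. Of gated macrophages, the wild-type share (86.7%) became 90.7% at 5000 to 20000 UMIs, 81.6% in female cells, 90.6% in male cells and 77.4% after thinning, and the knock-in share (90.8%) 78.9% after thinning. The 246 genes at least 2-fold higher became 106 with doublets removed, 163 at most 2% stromal, 103 in male cells, 80 after thinning, 151 with free RNA subtracted, 463 from 20 UMIs, 75 from 200 UMIs and 2547 from 1 UMI. The 209 genes at least 2-fold lower became 107 at most 2% stromal, 80 at 5000 to 20000 UMIs, 89 in female cells, 60 after thinning, 438 from 20 UMIs, 64 from 200 UMIs and 2707 from 1 UMI. Where cells or UMIs were left out, fewer genes reached the minimum, and no other cause was tested. The resident median (-0.05) became -0.14 at 5000 to 20000 UMIs and -0.17 in female cells. The matrix remodelling median (-0.47) became -0.21 at most 2% stromal, 0.0617 at 5000 to 20000 UMIs, -0.17 in female cells and -0.20 after thinning. The cell cycle median (-0.28) became -0.82 with doublets removed, 0.46 at 5000 to 20000 UMIs and 0.16 in female cells. The fibroblast marker median (-0.99) reversed to 0.29 at 5000 to 20000 UMIs and 0.40 in female cells, and Mucl1, which had 0 UMIs in female cells of either library, to -0.11 there, a value set by the added 0.5 alone. Of 276 values of named genes under the alternatives, 269 were still past 2-fold. These genes were picked for large ratios in the same cells, and the alternatives reuse those cells. The count is therefore no separate support for them. No paired analysis was possible because each genotype has 1 library and no result comes from a test. What limits every genotype ratio is the single library per genotype, and for Id1, Smad6, Npas2 and Vegfa also their few UMIs.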

Other observations

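Single genes of some further lists differed between the macrophages of the 2 libraries, against 11.1% of all genes at least 1.5-fold higher and 11.1% lower. Of 13 mitochondrially encoded genes, 3 were at least 1.5-fold higher in the knock-in cells and 0 lower (2 and 0 without the stromal-rich cells), and these 3 were mt-Atp8 at 83.0 CPM in wild-type and 241 CPM in knock-in macrophages (log2 ratio 1.54), mt-Nd3 at 683 and 1388 CPM (1.02) and mt-Nd4l (0.64). The ratios of the 3 in cells with under 3 gate UMIs were 2.62, 1.90 and 1.73. The remaining 10, among them mt-Co1 (0.12) and mt-Cytb (-0.33), lay between. Of 14 hypoxia and glycolysis genes, 2 were higher and 2 lower, with a median of 0.073. Hk2, the hexokinase that starts glycolysis, stood at 96.3 and 162 CPM (0.75), with 0.97 in female and 0.60 in male cells. Klf9, a transcription factor that responds to glucocorticoids, stood at 215 and 321 CPM (0.58), and Zbtb16, a glucocorticoid-responsive repressor, at 60.2 and 95 CPM (0.66), the only gene of 11 glucocorticoid response genes past 1.5-fold upward, beside 1 that was lower (2 and 0 without the stromal-rich cells). None of the 12 cell cycle inhibitor and p53 genes passed 1.5-fold.

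Of 10 monocyte genes, 1 was higher and 2 were lower in the knock-in macrophages, against 11.1% of all genes in each direction. Of 5 dendritic cell genes 2 were higher and 1 was lower, with a median of -0.21. S100a4, a calcium-binding protein, stood at 507 and 888 CPM in the macrophages (0.81), with a ratio of 1.21 in cells with under 3 gate UMIs. Siglech, a sialic acid lectin best known from plasmacytoid dendritic cells, stood at 26.7 and 48.8 CPM (0.87, interval 0.54 to 1.20), with ratios of 1.13 in female and 0.49 in male cells. Cd209a, a marker of dendritic cells, was detected with 5 UMIs among wild-type and 37 UMIs among knock-in macrophages (3.31, interval 1.96 to 5.01).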
